A study of Mus musculus with 2 samples.

Results

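Myoblasts in S phase are muscle precursor cells copying their DNA, and here they are 265 of the 3287 barcodes that passed the filters, 36 in the GFP+ library and 229 in the GFP- library. They were chosen by gene sums in each barcode with at least 1000 UMIs (unique molecular identifiers, 1 per captured transcript), no fewer than 500 genes and a mitochondrial share up to 10%. Pclaf, Rrm2, Tyms, Mcm3, Mcm5, Mcm6, Hells and Uhrf1 together had to reach 6 UMIs per 10000. Ccnb1, Ccnb2, Cdc20, Plk1, Ube2c, Hmmr and Aurka together, which mark G2 and mitosis, had to stay under 8 per 10000. Barcodes with macrophage genes (Lyz2, C1qa, C1qb and Tyrobp) at 10 per 10000 or with mural genes (Rgs5, Myh11 and Kcnj8) at 5 per 10000 were set aside. The remaining 529 GFP+ and 2514 GFP- barcodes are called myogenic cells below, although no myogenic marker was required of them. Those in neither S phase nor G2/M are called other cells.

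The cells came from Pax3GFP/+ mice, in which GFP reports the locus of Pax3, a transcription factor of a subset of satellite cells, although the genotype field of both samples reads wild-type. Satellite cells, the stem cells of skeletal muscle, were isolated by flow cytometry from biceps and recto femoris at 5 days post injury and sorted by GFP into the PAX3+ fraction (GFP+) and the PAX3- fraction (GFP-). Each fraction gave 1 droplet-based 3′ library from 20000 loaded cells, and the sources used here do not give the number of animals, the kind of injury, or whether the muscles were pooled. With 1 library per fraction there was no replicate and no test. Intervals are exact 95% intervals that cover counting error only, and each difference is one between these libraries or between groups of barcodes within them.

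Muscle injury brings quiescent satellite cells into the cell cycle as myoblasts, which divide before they leave the cycle and fuse into fibres. Entry into S phase follows cyclin D and cyclin E kinase activity, which inactivates the retinoblastoma proteins and frees E2F transcription factors to switch on replication genes. Origins are licensed by loading the MCM helicase, the helicase is then activated with CDC45 and GINS, and polymerases copy the strands while histones are made to package them. Cells that differentiate switch on Myog and cyclin-dependent kinase inhibitors such as Cdkn1c and exit the cycle.

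The S phase members were the deeper barcodes of their libraries. Their UMIs ran from 1078 through a median of 39206 to 82534 in the GFP+ library, and from 1019 through 23406 to 89120 in the GFP- library, against medians of 18707 and 14210 in other cells. Summed over members, this gave 1397876 and 5641783 UMIs. Median mitochondrial shares were 2.02% and 3.82%. Barcodes of 1 to 100 UMIs, taken as empty droplets, held the 8 S genes at 2.75 and 3.58 per 10000, below the limit of 6, and 2 passing barcodes occurred in both libraries, neither of them a member in S phase. Scrublet, a doublet caller, marked 3 barcodes in each library and 1 S phase member, so doublets were in effect not removed.

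The myogenic markers (Pax7, Myf5, Myod1, Myog, Des, Cdh15, Msc, Itga7, Megf10 and Chodl) all had UMIs, with a median of 21.1 per 10000 in GFP+ members and 20.5 in GFP- members against 30.7 and 25.9 in other cells. Among the members, 2 of 36 and 4 of 229 stayed under 5 per 10000. Markers of T cells were at 0 in both libraries, and the summed endothelial, macrophage and glial markers were at 2.15, 15.7 and 5.01 CPM (UMIs of the gene or list per 1000000 UMIs of the summed cells) in GFP+ members and at 3.01, 7.62 and 7.62 CPM in GFP- members. Markers used for other cell types were not all low. The mural list summed to 1257 and 1338 CPM in GFP+ and GFP- members, mostly Acta2 at 1177 and 1242, and 20 of 36 and 109 of 229 members passed 10 per 10000 for it. Other cells held 1624 and 1771 CPM of that list. Kcnj8 was at 0 in members of both libraries and Myh11 at 0 in GFP+ members, although the rule had set aside cells high in these genes. The fibro-adipogenic list summed to 1500 and 699 CPM, led by Col3a1 at 720 and 464, and 9 of 36 and 67 of 229 members passed 10 per 10000, against 1919 and 1107 CPM in other cells. The medians of the members were 5.15 and 6.02 per 10000 for this list. Pdgfra and Lum were at 0 in GFP- members. The part of these transcripts in the results was not tested. 1 GFP+ member stood apart, with 75199 UMIs, which is 5.38% of all UMIs of the GFP+ members, and only 2.79 myogenic marker UMIs per 10000. It held 669 UMIs of the collagen gene Col1a1, 497 of Col3a1 and 73 of Dcn, which marks fibroblast-like cells. These genes belong to the fibro-adipogenic list, so the GFP+ sum of 1500 CPM rests in large part on this member. Without it the count of genes higher in GFP+ members changes by over 1.5 times, and the values it touches there are given without it. In the GFP- library 1 member held glial markers at 15.7 per 10000. The other cells were mixed too: 5 of 468 and 28 of 2083 had under 5 myogenic marker UMIs per 10000. Dcn, Lum, Dpt and Pdgfra together reached 5 per 10000 in 26 GFP+ and 38 GFP- other cells. Glial markers without S100b reached it in 0 and 16, and endothelial markers in 0 and 7. The part of these barcodes in the ratios to other cells was not tested gene by gene.

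The 8 genes that chose the members are given as a description. Pclaf, which binds the replication clamp, stood at 401 CPM in GFP+ members against 8.22 in other cells, and at 425 against 11.1 CPM in the GFP- library. Rrm2, the regulated subunit of ribonucleotide reductase, stood at 332 and 285 CPM against 17.7 and 20.4, and Tyms, which makes thymidylate, at 145 and 164 against 10.8 and 13.8. The helicase subunits Mcm5 and Mcm6 stood at 106 and 188 CPM in GFP+ members and at 97.5 and 195 in GFP- members. Hells, a chromatin remodeller, and Uhrf1, which guides maintenance methylation, stood at 146 and 106 CPM in the GFP+ library and at 118 and 112 in the GFP- library. The lowest members lay at 6.57 and 6.02 per 10000 and the highest cells outside at 5.84 and 5.98, so the limit cuts a continuum: between 5 and 6 lay 2 and 28 cells outside, between 6 and 7 lay 3 and 18 members. At the other limit, 2 and 16 members lay between 7 and 8 G2/M UMIs per 10000 and 1 and 7 G2/M cells between 8 and 9. Of the 25 and 202 G2/M cells, 13 and 132 also had an S sum of 6 or more. The call rested on 10 or more UMIs in 31 of 36 and 210 of 229 members and on 3 or fewer in 3 and 8.

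**Figure D1:**
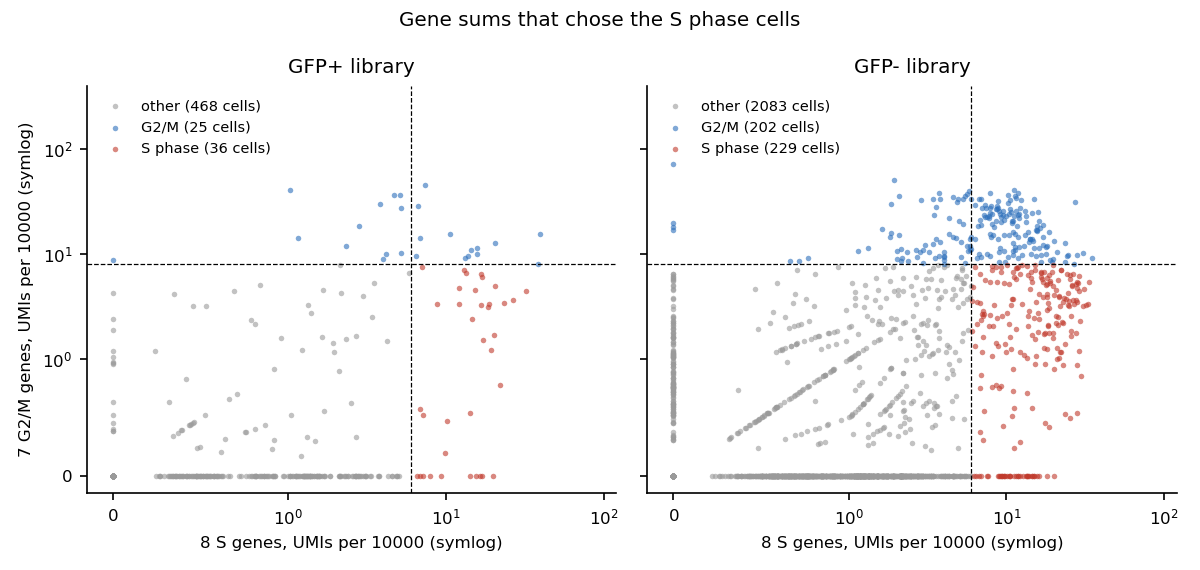
Each point is 1 myogenic cell, placed by the UMIs per 10000 of the 8 S genes (x) and of the 7 G2/M genes (y), both on symmetric log axes, with 1 panel per library and dashed lines at the limits of 6 and 8. The 36 and 229 S phase members (red) fill the lower right field, and cells run on without a gap across both limits.

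Some promoters of S phase genes are shown for the E2F element, through which such genes are known to be switched on at the entry to S phase. The element was searched for as TTTCCCGC, TTTCGCGC, TTTGCCGC or TTTGGCGC, on both strands, in the 250 bases before each start in RefSeq's windows (GRCm38.p6). It was present in 4 of 9 windows of the 8 S genes (44.4%), in 0 of 7 windows of the 7 G2/M genes and in 611 of all 32851 windows (1.86%). Pclaf, Rrm2, Tyms and Mcm3 had no match. Genes at least 2-fold higher in S phase than in other cells held it in 36 of 312 windows (11.5%), with 265 of 332 such genes matched. Over all genes of the matrices it was in 528 of 24834 windows (2.13%). No share was computed for the genes with enough UMIs to be compared, and the higher genes were found in cells chosen by the 8 S genes. The CHR element TTTGAA, known from genes of G2 and mitosis, was in 0 of the 9 S gene windows, in 3 of the 7 G2/M windows (42.9%) and in 16.0% of all windows. CCAAT was in 7 of 9, 7 of 7 and 33.9%. Below are the 200 bases before the start of 4 licensing, helicase and remodelling genes with the E2F element in capitals, and then of 2 G2/M genes with the CHR element in capitals. Their positions are chr8:75109309-75109508 on the plus strand for Mcm5, chr1:128359706-128359905 on the minus strand for Mcm6, chr19:38930790-38930989 on the plus strand for Hells, chr11:98907951-98908150 on the plus strand for Cdc6, chr4:118437344-118437543 on the minus strand for Cdc20 and chr2:164769729-164769928 on the plus strand for Ube2c.
Mcm5: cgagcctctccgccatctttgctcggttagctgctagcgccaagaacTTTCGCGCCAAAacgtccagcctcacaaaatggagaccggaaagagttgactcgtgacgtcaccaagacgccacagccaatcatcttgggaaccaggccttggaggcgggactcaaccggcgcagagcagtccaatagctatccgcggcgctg
Mcm6: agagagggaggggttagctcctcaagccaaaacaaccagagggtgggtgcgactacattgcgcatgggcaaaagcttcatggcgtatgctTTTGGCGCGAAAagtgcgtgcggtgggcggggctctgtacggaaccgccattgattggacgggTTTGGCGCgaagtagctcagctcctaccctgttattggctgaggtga
Hells: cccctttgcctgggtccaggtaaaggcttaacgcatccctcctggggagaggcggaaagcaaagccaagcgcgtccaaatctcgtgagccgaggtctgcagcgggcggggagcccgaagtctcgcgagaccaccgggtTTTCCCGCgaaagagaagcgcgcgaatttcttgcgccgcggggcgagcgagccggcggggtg
Cdc6: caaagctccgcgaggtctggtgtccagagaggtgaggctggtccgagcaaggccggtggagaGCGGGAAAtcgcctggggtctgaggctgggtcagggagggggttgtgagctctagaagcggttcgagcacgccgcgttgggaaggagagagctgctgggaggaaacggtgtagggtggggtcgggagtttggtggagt
Cdc20: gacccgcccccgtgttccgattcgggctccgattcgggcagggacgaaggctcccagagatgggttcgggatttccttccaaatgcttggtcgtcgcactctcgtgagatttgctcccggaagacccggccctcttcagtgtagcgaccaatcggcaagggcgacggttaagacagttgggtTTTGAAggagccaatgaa
Ube2c: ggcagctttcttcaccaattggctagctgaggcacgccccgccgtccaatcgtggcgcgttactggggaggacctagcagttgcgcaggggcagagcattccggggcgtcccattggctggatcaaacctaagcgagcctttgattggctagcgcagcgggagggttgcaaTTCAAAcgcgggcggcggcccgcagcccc
Mcm5 and Mcm6 each hold a pair of elements that overlap by 4 bases, at 153 and 149 bases before the start of Mcm5 and at 110 and 106 before that of Mcm6, which has another at 47. These matches are letters in a window and say nothing of binding.

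Across all genes outside the rule, 332 of 5771 (5.75%) were at least 2-fold higher in S phase than in other cells in both libraries, and 111 (1.92%) at least 2-fold lower. A gene entered where it reached 20 CPM in either class of each library. Without barcodes under 5 myogenic marker UMIs per 10000 in any class, the higher and lower genes numbered 328 and 117. Since the members were selected on replication genes, and cells selected on some genes of the cycle will differ in the rest, these counts describe the class and test nothing. A low gene entered only through the class where it was high, so counts are given against whole lists. The lists themselves were drawn up with earlier results of these data known.

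Licensing and helicase genes accompanied the rule. Of 13 licensing genes outside it, 9 reached the level and 6 were at least 2-fold higher in both libraries, and of 16 helicase activation and fork genes 9 reached it and 9 were higher, with none lower in either list. Mcm2, a further subunit of the helicase, stood at 80.1 CPM in GFP+ members against 18 in G2/M and 12.7 in other cells, and at 88.4 against 29.9 and 11.2 CPM in the GFP- library. Its ratio of S phase to other cells was 6.29 (4.79 to 8.26) and 7.86 (6.85 to 9.04). Cdt1, the loader of the helicase, stood at 53.7 and 54.9 CPM against 5.91 and 7.59, while Gmnn, the inhibitor of Cdt1 that prevents relicensing, stood at 128 and 130.5 against 3.24 and 5.69. RNA for the loader and for its inhibitor was therefore high in the same summed cells. Cdc6, which recruits the helicase to origins, reached 17.2 CPM in GFP+ members, under the level required, and 28.4 in GFP- members. Gins2, Cdc45 and Clspn, of the active fork, were higher by 18.2, 9.56 and 33.8 times in the GFP+ library and by 9.17, 8.14 and 37.1 times in the GFP- library.

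Polymerase and nucleotide genes were higher as well. Of 26 polymerase and clamp genes, 24 reached the level and 21 were at least 2-fold higher in both libraries. Pcna, the sliding clamp, stood at 367 CPM against 160.4 in G2/M and 33.2 in other cells of the GFP+ library, and at 369, 150.4 and 40.5 CPM in the GFP- library, ratios of S phase to G2/M cells of 2.29 (1.88 to 2.8) and 2.45 (2.26 to 2.67). The primase subunit Prim1, the ligase Lig1 and the flap nuclease Fen1 were higher than in other cells by 12.2, 11.5 and 16.1 times in GFP+ members and by 10.7, 13.1 and 9.08 times in GFP- members. Among 12 genes of deoxynucleotide supply, 11 reached the level and 8 were higher. Tk1, thymidine kinase, stood at 79.4 and 102 CPM against 1.04 and 1.62. Ung removes uracil from DNA, and of these genes it set S phase apart from G2/M most: 45.8 against 1.28 CPM in the GFP+ library and 28.7 against 1.85 CPM in the GFP- library, with other cells at 4.29 and 3.88. The 25 GFP+ G2/M cells summed to only 779094 UMIs, so their value for Ung is near the floor and that ratio is imprecise.

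The enzymes that feed nucleotide synthesis were higher by less. Of 10 one-carbon folate and serine enzymes, 8 reached the level and 7 were at least 2-fold higher, with median log2 ratios of 1.65 and 1.70 against -0.00 and -0.01 over all genes. Mthfd2, the mitochondrial folate enzyme, stood at 112 and 89 CPM against 15.5 and 20.3, and Phgdh, the entry to serine synthesis, at 283 and 258 against 58.1 and 73.2. Of 17 purine and pyrimidine enzymes, 14 reached the level and 6 were higher, and the median log2 ratios were 1.04 and 0.90. Umps, of the pyrimidine branch, was higher by 3.69 and 3.17 times and Gart, of the purine branch, by 2.43 and 2.54 times.

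Chromatin assembly genes and histones were also higher than in other cells, but their sums were not higher than in G2/M cells. The histone list summed to 1877 CPM in S phase and 1898 in G2/M cells of the GFP+ library, and to 944 and 957 CPM in the GFP- library. The chromatin list summed to 8412 against 10990 CPM and to 8218 against 10200 CPM. Of 26 chromatin genes, all of which reached the level, 20 were at least 2-fold higher in both libraries and none lower. Chaf1b, a subunit of the chaperone that loads histones behind the fork, stood at 59.4 CPM against 14.1 in G2/M and 2.43 in other cells of the GFP+ library, and at 58.7, 17.5 and 2.76 CPM in the GFP- library. Asf1b, another histone chaperone, was at 46.5 and 51.9 CPM in S phase but also at 48.8 and 48 in G2/M, against 0.347 and 0.763 in other cells. Replication-dependent histone transcripts mostly lack the poly(A) tail that this method captures, and only 7 of 42 reached the level, of which 5 were higher. Hist1h1b, a linker histone, stood at 203 and 276 CPM against 2.55 and 3.46, and Hist1h2ap, of the H2A type, at 657 and 209.5 against 7.64 and 1.3. Histone genes are near-identical copies, so which copy the reads came from is uncertain.

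Among the regulators, the cyclin E genes and the activating E2F separated S phase from G2/M. Ccne2 stood at 95.9 CPM in GFP+ members, 20.5 in G2/M and 1.27 in other cells, and at 34.4, 7.94 and 0.667 CPM in the GFP- library. Its paralog Ccne1 had a higher floor, at 74.4, 28.2 and 25.7 CPM and at 80.6, 34 and 31 CPM. E2f1, an activator, stood at 68 and 48.9 CPM against 15.4 and 12.4 in G2/M, while E2f7, a repressor that shuts the programme down, was at 22.9 and 26.8 against 16.7 and 21.4. Ccnd1, cyclin D1, was 2.07 (1.79 to 2.4) and 2.03 (1.87 to 2.2) times as high as in other cells, at 174 and 145 CPM. Of 19 E2F and retinoblastoma family genes 11 reached the level and 5 were higher, of 22 cyclin and kinase genes 18 and 11, and of 35 replication checkpoint and repair genes 12 and 9, with none lower. Exo1, a mismatch repair nuclease, stood at 23.6 and 20.6 CPM against 0.116 and 0.477, and Brca1, of homologous recombination, at 25.8 and 32.4 against 0.579 and 1.14.

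**Figure D2:**
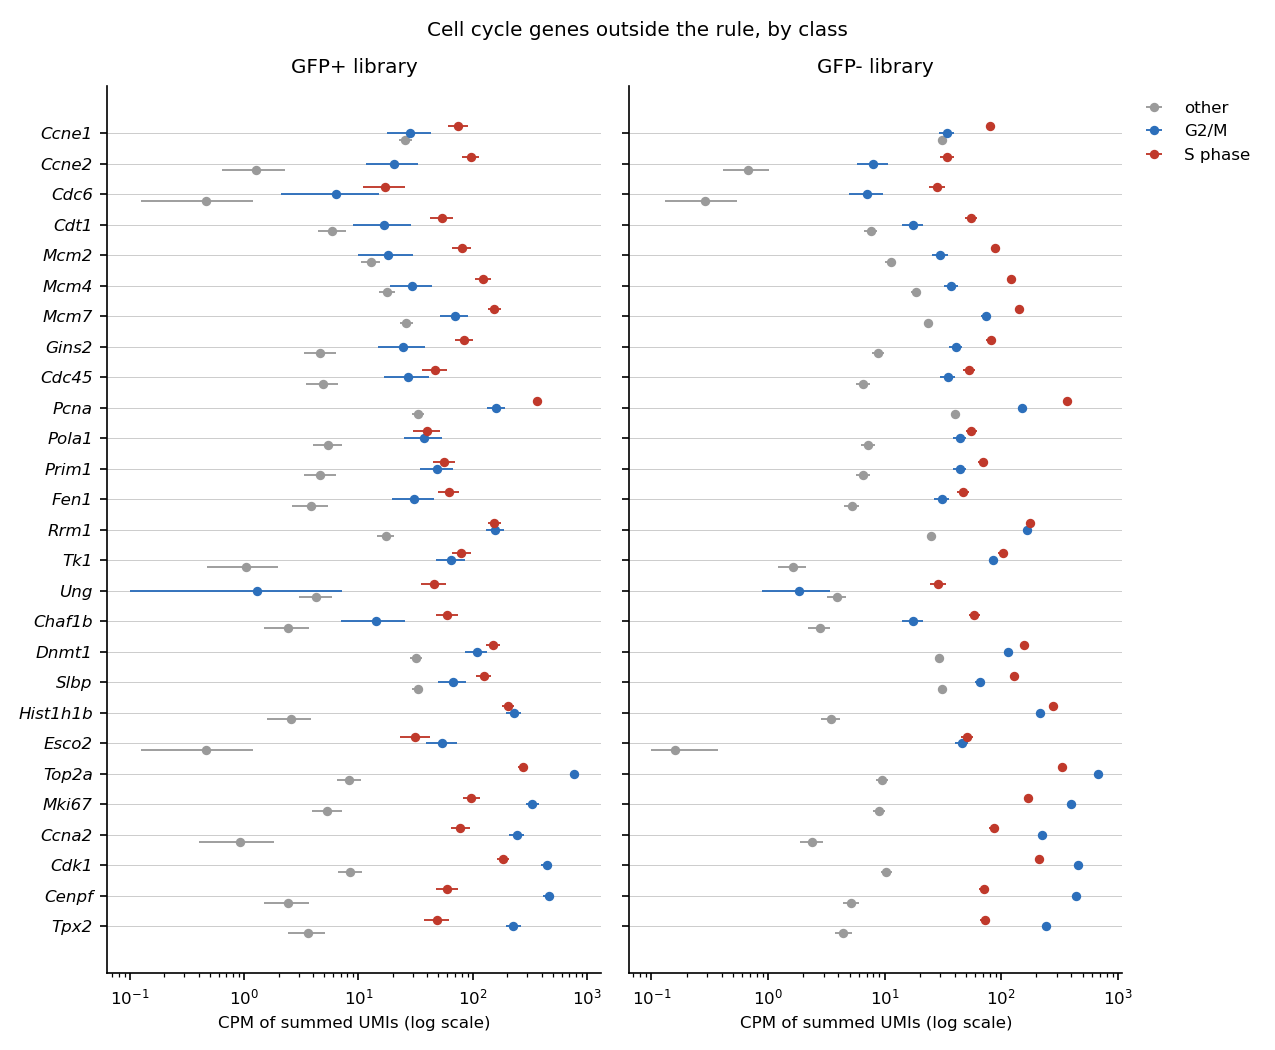
The plot shows CPM of summed UMIs on a log axis for 27 cell cycle genes outside the rule, in S phase (red), G2/M (blue) and other cells (grey), 1 panel per library, with bars for the exact 95% Poisson interval. Licensing and cyclin E genes lie highest in S phase, whereas Top2a, Mki67, Cenpf and Tpx2 lie highest in G2/M, and all 27 lie higher in S phase than in other cells in both panels.

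Against G2/M cells the class differed in few genes on the high side and in many mitotic genes on the low side. Of 5560 genes, 22 (0.396%) were at least 2-fold higher in S phase than in G2/M cells in both libraries, and 104 (1.87%) at least 2-fold lower. Both classes were defined by their own gene sums, so this too is a description. The higher genes included Ung, Ccne2, E2f1, Mcm4, Cdt1, Cdca7, Mcm2, Dscc1 and Mybl2. With each cell thinned to 5000 UMIs and classed again, Cdca7 and Cdt1 stood at 0.906 and 0.453 times their G2/M level in the GFP+ library. Mcm4 stood at 123 against 29.5 CPM and at 120.2 against 37.3 CPM, and Mybl2, a transcription factor of the late cycle, at 32.2 against 6.42 and at 25.5 against 10.3. Of 42 G2 and mitosis genes outside the rule, 41 reached the level and 38 were at least 2-fold lower in S phase, yet 32 were at least 2-fold higher in S phase than in other cells. Cenpf, of the kinetochore, showed this step, with 2.43, 59.4 and 459.5 CPM in other, S phase and G2/M cells of the GFP+ library and 5.12, 71.8 and 437 CPM in the GFP- library. Top2a, the topoisomerase that untangles copied DNA, ran 8.34, 277 and 774 CPM and 9.5, 329.5 and 681 CPM. Aurkb, of the mitotic kinase complex, ran 0.232, 32.2 and 108 CPM and 0.635, 42.7 and 106 CPM.

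Within the class the replication genes did not move as 1 block. The members were ordered by the sum of Top2a, Mki67, Ccna2 and Cdk1, which rise late in the cycle, into those under 4, from 4 to under 12, and at 12 or more per 10000. These bins held 20, 8 and 8 GFP+ members and 98, 81 and 50 GFP- members, so the upper GFP+ bins hold under 20 cells each, and median UMIs were 36553, 48120 and 44750 in the GFP+ library and 18549, 27831 and 23480 in the GFP- library. The split was chosen after the values were seen, and genes correlated with those 4 must follow it. Histone RNA was almost confined to the upper bins: Hist1h1b ran 7.16, 249 and 570.1 CPM in GFP+ members and 11.7, 282 and 675 CPM in GFP- members. The summed histone genes ran 169, 2721 and 4570 CPM and 148, 1010 and 2066 CPM. Esco2, which locks sister chromatids together as they are made, ran 2.86, 29.5 and 95 CPM and 1.46, 43.9 and 140.0 CPM. The helicase subunits rose by smaller steps or stayed level. Mcm4 stood at 123 (98.5 to 152), 107 (76.6 to 146) and 141 (103 to 188) CPM in GFP+ members and at 108 (94.6 to 124), 128 (114 to 144) and 125 (107 to 146) CPM in GFP- members, with overlapping intervals. Mcm7 ran 134 (109 to 165), 174 (134 to 222) and 175 (132 to 226) CPM and 122 (108 to 138), 142 (127 to 159) and 169 (147 to 192) CPM, and in the GFP- library its lowest and highest bins did not overlap. Mcm6 of the rule ran 172, 193 and 233 CPM in GFP- members, and Mcm2 ran 63, 83.1 and 113 CPM in GFP+ members. The summed helicase activation and fork genes climbed in both libraries, at 527, 812 and 916 CPM and at 542, 782 and 949 CPM. Without the GFP+ member that stood apart, which lay in the middle bin, the summed histone genes of that bin were at 2992 CPM, and 4 of 378 bin values of single genes left their interval, in Ccnd2, H2afz, Hist1h2ap and Ube2c. The lowest bin held 20 of 36 and 98 of 229 members whose sum contained licensing RNA but little histone RNA.

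Other members of the programme fell between these patterns. Rrm2 ran 243, 426 and 414 CPM and 159, 346 and 377 CPM, and Pclaf 239, 445 and 696 CPM and 192, 456 and 730.2 CPM, although both belong to the rule. Ccnd1 was lowest in the highest bin, at 200.4 (169 to 236), 179.6 (139 to 228) and 110.3 (77.3 to 153) CPM in GFP+ members and at 166 (149 to 185), 165 (149 to 183) and 78.3 (64 to 94.9) CPM in GFP- members. Its first and second bins differed by less than their intervals. Cdkn1c was highest in the lowest bin, at 518, 75.1 and 132 CPM and at 1024, 416 and 522 CPM. Myf5, a determination factor, showed no such order, at 140.3 (114 to 171), 134 (99.5 to 177) and 141 (103 to 188) CPM and at 140.4 (125 to 158), 149.9 (134 to 167) and 154 (133 to 176) CPM.

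**Figure D3:**
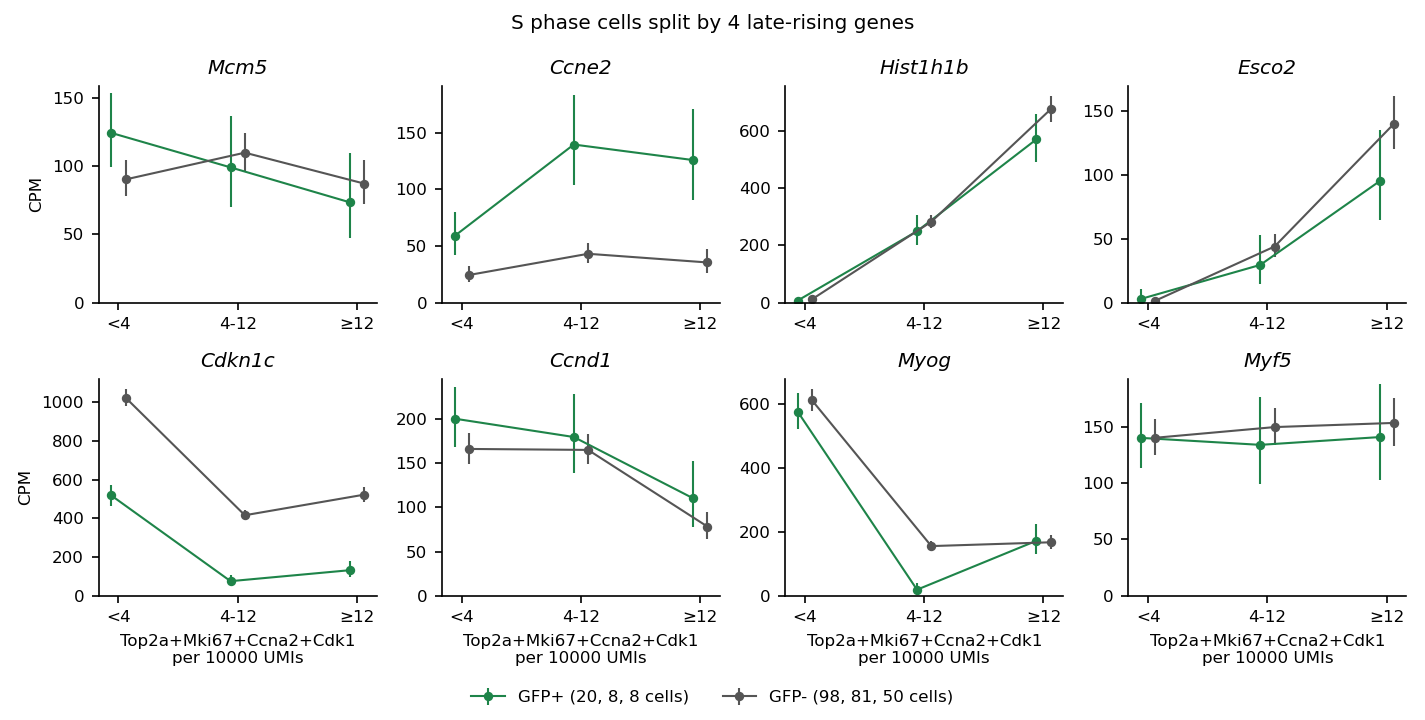
Each panel plots the CPM of 1 gene (y) in the S phase members split into 3 bins by the summed UMIs per 10000 of Top2a, Mki67, Ccna2 and Cdk1 (x), for the GFP+ (green) and GFP- (grey) library, with exact 95% Poisson intervals. Hist1h1b and Esco2 climb from near 0, Mcm5 and Myf5 do not climb in either library, and Cdkn1c and Myog are highest in the lowest bin.

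As a share of UMIs, Pax7 and Myf5 were lower in S phase than in other cells, whose barcodes held fewer UMIs. No myogenic regulator measured was 2-fold higher in both libraries. Between S phase and G2/M cells, none of the 16 regulators that reached the level passed 2-fold in either direction in both libraries. Pax7, the satellite cell transcription factor, stood at 95.1 CPM in GFP+ members against 231 in other cells and at 92.3 against 168 CPM in the GFP- library, ratios of 0.412 (0.343 to 0.492) and 0.551 (0.503 to 0.603). Myf5 stood at 139 against 322 CPM and at 147 against 213. Myod1, which commits myoblasts, was on the other side, at 167 against 89.4 CPM and at 128 against 98.9, ratios of 1.87 (1.61 to 2.17) and 1.29 (1.19 to 1.4). In GFP+ members 27.4% of its UMIs came from 1 cell. After each cell was thinned to 5000 UMIs, which left out 4 and 12 members, Pax7 was seen in 40.6 (23.7 to 59.4)% of GFP+ members and 59.7 (54.8 to 64.5)% of other cells, and in 33.6 (27.4 to 40.4)% and 51.6 (49.4 to 53.9)% in the GFP- library. Myod1 was seen in 31.2 (16.1 to 50)% against 20.6 (16.8 to 24.8)% and in 31.8 (25.7 to 38.4)% against 21.1 (19.3 to 23)%. In thinned G2/M cells of the GFP+ and GFP- library, Pax7 was seen in 47.6 (25.7 to 70.2)% and 34.5 (27.9 to 41.7)%. Myod1 was seen there in 33.3 (14.6 to 57)% and 25.8 (19.8 to 32.5)%. Pax7 was found in 0 of 68 and in 4.55% of 44 thinned macrophage barcodes, and Myod1 likewise. A count of 0 in 68 allows a share of up to 4.41%, and median UMIs of the macrophage barcodes were 13545 and 8086. The GFP- share is not a clean gauge of free RNA. Of 57 GFP- macrophage barcodes 7 passed 10 myogenic marker UMIs per 10000, up to 62.2, while the median was 0. The part of free RNA and of doublets in them was not tested. Unthinned, Pax7 had a UMI in 27 of 36 members against 82.1% of other cells and in 74.2% against 72.8%, and Myod1 in 52.8% against 35.5% and in 53.3% against 34.0%, at the unequal depths given above.

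Of 24 myogenic regulators 16 reached the level and 2 were at least 2-fold lower in both libraries, Myog and Msc. Myog, the differentiation factor, stood at 333 against 1100.3 CPM and at 324 against 979.8 CPM. It was uneven: 5 of 36 and 22 of 229 members held Myog at 5 or more per 10000, against 62 of 468 and 358 of 2083 other cells, and these carried 90.3% and 92.5% of the Myog UMIs of the members. 1 GFP+ member alone carried 58.9%. The shares of cells at that level were 13.9% (4.67 to 29.5) and 9.61% (6.12 to 14.2) in S phase against 13.2% (10.3 to 16.7) and 17.2% (15.6 to 18.9) in other cells, so they overlapped in the GFP+ library and did not in the GFP- library. In G2/M cells the shares were 20.0% (6.83 to 40.7) and 11.9% (7.76 to 17.2). By bin, Myog ran 575, 18.8 and 172 CPM and 611, 155 and 167 CPM. In the GFP- library the Myog-bearing members had a median S sum of 8.93 per 10000 against 14.9 in the rest, and in the GFP+ library 14.2 against 15.2. With barcodes at that Myog level left out of every class, residual Myog was 2.83 and 1.21 times as high in S phase as in other cells. The barcodes left out held 99.03% and 98.15% of the Myog UMIs of other cells, so these ratios compare small remainders.

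Some differentiation genes were lower. Of 30 differentiation and fusion genes 21 reached the level, 8 were at least 2-fold lower in both libraries and none higher. Mymk, the fusion factor, stood at 41.5 and 29.8 CPM against 116 and 117, and Mymx, its partner, at 27.9 and 53.4 against 94.1 and 146. Actc1 and Acta1, sarcomeric actins, were lower too, but 81.6% and 75.9% of their UMIs in GFP+ members came from 1 cell, and 53% and 30% in GFP- members. Without the Myog-bearing barcodes Actc1 was 1.36 times as high in GFP- members as in other cells, and Mymk and Mymx were 9.25 and 2.63 times as high in GFP+ members. These ratios compare what was left after nearly all Myog UMIs of other cells had been removed, and they carry no intervals. Of 19 kinase inhibitor and p53 target genes 16 reached the level and 2 were lower, Cdkn1c and Gadd45a, with none higher. Cdkn1c, which holds cells out of the cycle, had the lowest ratio of that list, at 309.8 against 2339 CPM and at 663 against 2840.5 CPM, or 0.132 (0.12 to 0.146) and 0.233 (0.226 to 0.241). Its other family members did not pass, Cdkn1a at 0.799 and 0.746 and Cdkn1b at 0.797 and 0.78 times the level of other cells. After thinning, Cdkn1c was seen in 40.6% and 43.3% of members and in 61.9% and 77.3% of other cells. In G2/M cells it was seen in 61.9% and 42.3%. Between S phase and G2/M cells, 20 differentiation and fusion genes and 15 kinase inhibitor and p53 target genes reached the level. None of them passed 2-fold in either direction in both libraries.

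Among 26 genes known from quiescent satellite cells, 18 reached the level and 3 were at least 2-fold lower in both libraries, Chodl, Heyl and Egr1, with none higher, where 1.92% of all genes were lower. Chodl, a membrane lectin, stood at 10.7 against 219 CPM in the GFP+ library and at 33.5 against 116 in the GFP- library. Heyl, a Notch target, stood at 73 and 78.9 CPM against 165 and 158. Of 20 progenitor and matrix genes 19 reached the level and 5 were lower, among them the growth-restraining genes Plagl1, which is imprinted, at 47.9 and 90.2 CPM against 147 and 189, and Gpc3, at 26.5 and 54.6 against 116 and 117. Of 19 growth factor receptor and feedback genes 10 reached the level and none passed in either direction, with median log2 ratios of -0.88 and -0.46. Between S phase and G2/M cells, none of 18 quiescence genes at the level passed 2-fold in both libraries. Of 19 progenitor and matrix genes 1 was higher in S phase than in G2/M cells and none lower.

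**Figure D4:**
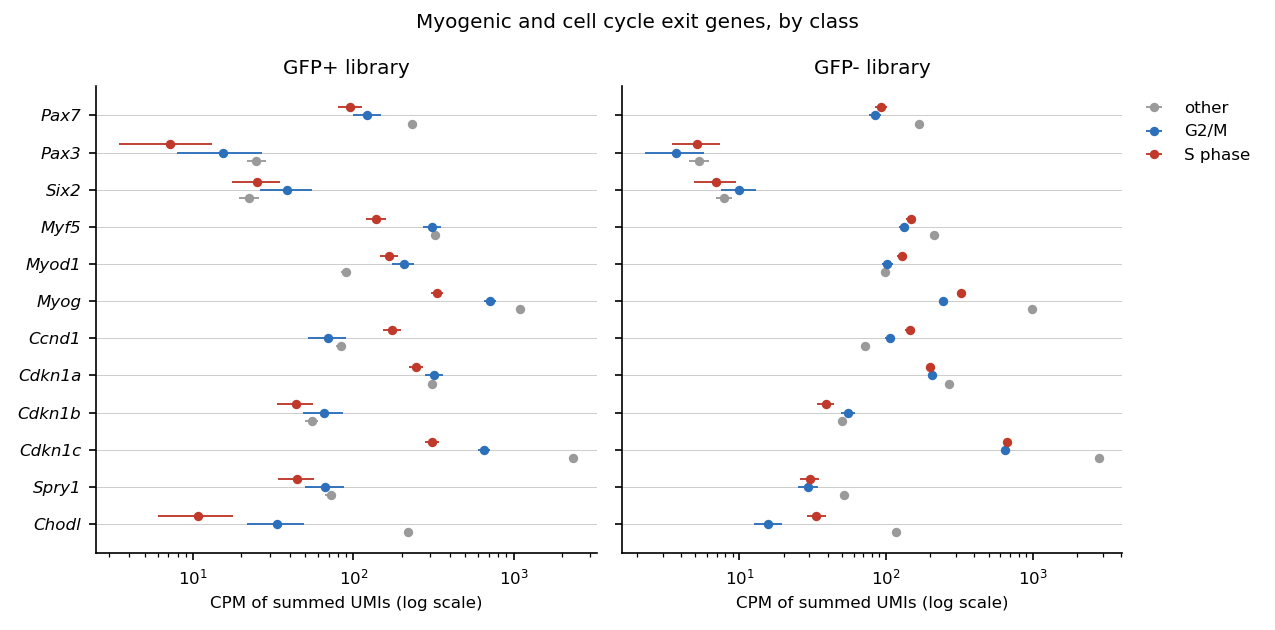
The plot shows CPM of summed UMIs on a log axis for 12 myogenic and exit genes in S phase (red), G2/M (blue) and other cells (grey), 1 panel per library, with exact 95% Poisson intervals. Cdkn1c, Myog, Pax7 and Chodl lie lower in S phase than in other cells in both panels, whereas Myod1 and Ccnd1 lie higher.

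Growth genes differed by smaller steps that mostly missed 2-fold. Of 30 ribosome biogenesis genes 26 reached the level, 2 were at least 2-fold higher in both libraries, Nolc1 and Dkc1, and the median log2 ratios were 0.65 and 0.59. Ncl, nucleolin, stood at 1043 and 871 CPM against 524 and 456. Myc itself was on the low side, at 52.9 and 47.7 CPM against 119 and 83.6, with 20.3% of the GFP+ UMIs from 1 cell, while Mxd3, of the family that competes with Myc for its partner Max, stood at 22.2 and 25.2 against 1.04 and 0.763. Of 24 oxidative phosphorylation genes, all of which reached the level, 1 was higher, Cycs (cytochrome c), at 748 and 466 CPM against 249 and 211. Of 20 glycolysis genes 15 reached the level and 2 were higher, Eno3 and Pgam1, with Ldha at 2.19 and 1.94 times the level of other cells. Of 20 interferon-stimulated genes in the matrices 8 reached the level and none passed.

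The share of the class was lower in the GFP+ library, but whether the interval of the ratio included 1 changed with the limits. S phase cells were 6.81% (4.81 to 9.30) of GFP+ myogenic cells and 9.11% (8.01 to 10.3) of GFP- myogenic cells, a ratio of 0.747 (0.511 to 1.07), an interval that includes 1. G2/M cells were 4.73% (3.08 to 6.90) and 8.04% (7.002 to 9.17). The GFP+ members were deeper, and with each cell thinned to 5000 UMIs before the sums the shares were 8.49% and 11.0%. With at most 5% mitochondrial UMIs the GFP- share was 11.5% and the ratio 0.592 (0.400 to 0.854), and with an S sum of at least 4 it was 0.708 (0.506 to 0.971). Both intervals lie below 1, whereas thinning gave 0.773 (0.539 to 1.08). Loss of cells on sorting, the library and the fraction cannot be told apart.

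Within the class, GFP+ and GFP- members were compared gene by gene, a contrast that the rule did not use but that has 1 library on each side. Of 5927 genes, 107 (1.81%) stood at least 2-fold higher in GFP+ members and 67 (1.13%) at least 2-fold lower. The GFP+ member with Dcn and Col1a1 described above held 97.2% or more of the GFP+ UMIs of 10 of the 12 highest genes, such as Thbs4, Mfap5, Dcn and Ccl2, and another cell held 97.7% of those of BC028528. Without barcodes under 5 myogenic marker UMIs per 10000, which left 34 and 225 members, 64 of 5840 genes were higher and 68 lower, sharing 57 and 47 genes with the first counts. Values that follow are without those barcodes, unless all members are named. The last of the 12 was an added transgene feature with GFP in its name, with 28 UMIs in GFP+ and 0 in GFP- members, at least 39.7 times higher if the GFP- sum is taken as 3 counts. No source here gives its sequence, and if it reports the sorted GFP, its difference is what the sort selects. Of the 64 higher genes 36 passed 2-fold in the same direction between GFP+ and GFP- other cells, and of the 68 lower genes 6 did so. Over all 5840 genes, 65 (1.11%) were 2-fold higher and 25 (0.428%) 2-fold lower in those other cells. On the same side of 1 in other cells were 57 of the 64 and 58 of the 68, where 34.9% of all genes lay above 1 and 65.1% below.

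Genes with both patterns stood among the higher ones. Six2, a homeobox gene named in the study's title, stood at 25.7 and 6.94 CPM, 3.71 (2.27 to 6.03) times higher in GFP+ members, and was 2.87 (2.37 to 3.48) times higher in GFP+ other cells. Pax3 was 1.47 (0.637 to 3.1) in S phase, an interval that includes 1, and 4.68 (3.81 to 5.76) in other cells. Its counts were low, at 7.57 and 5.16 CPM. Tmsb10, which binds actin, was 3.27 (3.21 to 3.34) in S phase and 2.18 in other cells, so it differed between the libraries in both classes. Ccne2 was 2.72 (2.15 to 3.43) times higher in GFP+ members, at 92.3 against 34 CPM, and in all 3 bins of the late genes it was higher in the GFP+ library: 58.8 against 24.3, 134 against 42 and 126 against 35.4 CPM. Ccne1 stood at 77.9 and 80.6 CPM.

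Pax7 and Myf5 did not differ between the libraries beyond their intervals, and Myod1 was higher in the sum of GFP+ members. Pclaf and Mcm5 are genes of the rule, which set the same limit in both libraries, so their ratios are a description. Of the other S genes of the rule, Rrm2 stood at 1.17 (1.05 to 1.3), Hells at 1.26 (1.07 to 1.48) and Mcm3 at 0.845 (0.715 to 0.993). The intervals of Mcm6, Uhrf1 and Tyms included 1. Pclaf was 0.935 (0.849 to 1.03) and Mcm5 1.11 (0.92 to 1.34) times as high in GFP+ as in GFP- members. Pax7, Myf5 and Myod1 were 1.08 (0.89 to 1.31), 0.993 (0.845 to 1.16) and 1.38 (1.18 to 1.6). For Myod1, 1 cell held 27.4% of the GFP+ UMIs, and the thinned shares of all members were alike, at 31.2% and 31.8%. Its ratio was 0.911 (0.841 to 0.986) in other cells and 2.06 (1.71 to 2.46) in G2/M cells. No licensing, fork, polymerase or nucleotide gene passed 2-fold in either direction over all members. Of 17 myogenic regulators 1 was higher, Six2, and of 16 replication checkpoint and repair genes 1 was lower. Of 42 histone genes 13 reached the level and 5 were higher over all GFP+ members, among them Hist1h2ap and Hist1h2ae. Without the barcodes low in myogenic markers, Hist1h2ap stood at 3.21 (2.94 to 3.5) and Hist1h2ae at 2.97 (2.63 to 3.35). The linker histone Hist1h1b was then 0.738 (0.646 to 0.841). Hist1h2ap was also 4.17 times higher in G2/M cells of the GFP+ library and 5.92 (3.95 to 8.96) in other cells. Mki67 was lower in GFP+ members, at 0.574 (0.474 to 0.69), and so was Cdkn1c, at 0.491 (0.444 to 0.543). The Cdkn1c ratio was 0.828 in other cells and 1.04 (0.942 to 1.14) in G2/M cells, an interval that includes 1. In GFP+ members 29.9% of the Cdkn1c UMIs came from 1 cell. Across the bins Cdkn1c stood at 518 against 1025, 94 against 419 and 132 against 523 CPM, lower in the GFP+ library in each. Chodl was 0.337 (0.185 to 0.571) in S phase and 1.9 (1.8 to 2.01) in other cells, on opposite sides. With each cell thinned to 5000 UMIs and classed again, the S phase members were 39 and 257, and the Chodl ratio was 2.56 (1.56 to 4.08). Its UMIs in GFP+ members were 15 before and 26 after. Membership changed along with depth, so these ratios are not of the same cells, and the part of each was not tested. Neat1, a nuclear RNA, was 0.266 (0.223 to 0.315), and 0.527 in other cells. Depth and mitochondrial share differed between these libraries, at medians of 39206 and 23406 UMIs and 2.02% and 3.82%, and their part in these ratios was not tested.

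**Figure D5:**
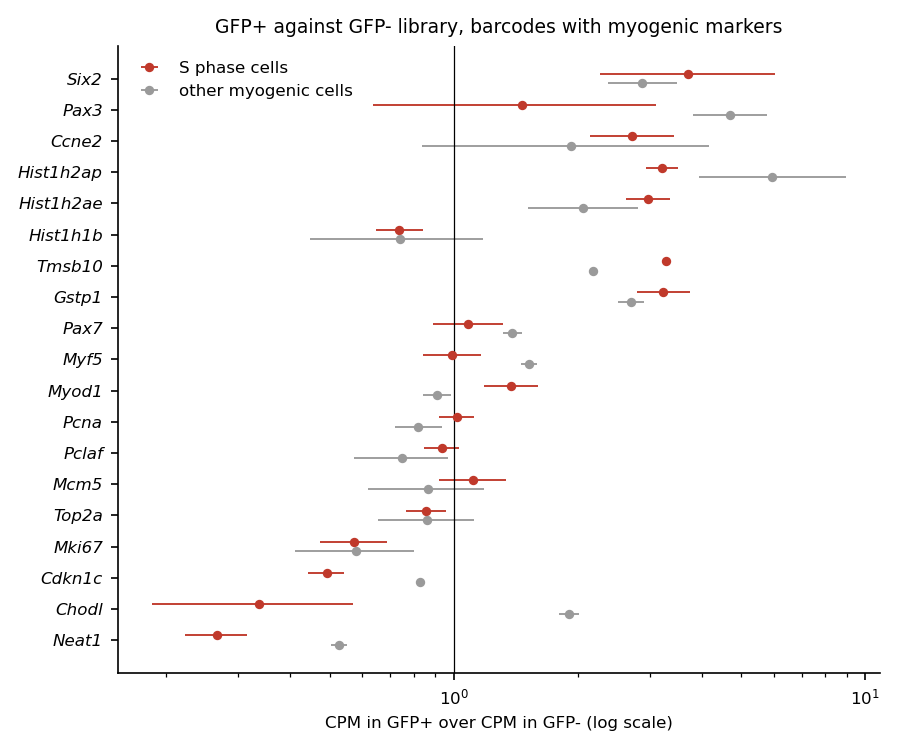
The plot shows the ratio of CPM in the GFP+ library to CPM in the GFP- library on a log axis for 19 genes, in S phase members (red) and other cells (grey) with myogenic markers, with exact 95% conditional intervals and a line at 1. Six2, Hist1h2ap and Tmsb10 lie above 1 in both classes, and Chodl lies below 1 in S phase and above 1 in other cells. Pclaf and Mcm5, which belong to the rule, have S phase intervals that include 1.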

How the data were processed

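The deposited matrices hold unnormalized UMI counts for every barcode, empty droplets included, and were made with Cell Ranger version 4 per the file headers. The submitters' processing notes name Cell Ranger, Seurat and mm10. Each library's group came from its label. Barcodes were filtered and classed by the gene sums stated at the opening. Counts were summed per library and class and scaled to CPM, and ratios carry exact conditional intervals. Where 1 side had 0 UMIs, 3 counts for that summed group stood in. Named genes were the rule genes, a fixed set of myogenic and cycle genes, up to 4 per list by S phase to other ratio, and the 12 highest and 12 lowest ratios per comparison, without mitochondrial, ribosomal protein, haemoglobin, Gm and Rik genes. Some genes that this rule names are not reported here. Other genes are list members chosen after their values were seen. The members, the 24 lists and the tests were chosen with earlier results of these data known. Ratios were tested on simulated data. Thinning drew 5000 UMIs per cell. Shares of cells with a UMI of a gene kept the classes set before thinning. Other thinned values came from cells classed again after thinning, so their members differ. Promoters came from RefSeq (GRCm38.p6). Analyses used scanpy 1.11.5, scipy 1.17.1 and numpy 2.4.6 in Python 3.11.15, and for alternative scalings edgeR 4.0.16 and DESeq2 1.42.0 in R 4.3.3. These scalings gave no p-values.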

Additional observations from a re-analysis of the deposited data

Results flagged for a closer look

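Genes named for their GFP+ over GFP- ratio stood on opposite sides of 1 in the libraries when S phase members were set against other cells: 7 were higher in GFP+ members and lower in GFP- members, at least 1.5-fold each way. The difference between the libraries was not tested. Ccl2, a monocyte chemokine, was 22.5 times as high in GFP+ members as in GFP+ other cells and 0.632 times in the GFP- library. Thbs4, a matrix protein, stood at 5.97 and 0.188, Ccl7 at 3.85 and 0.208, Mfap5 at 3.15 and 0.140 and Ptgs2 at 2.94 and 0.124. Tnfaip6 stood at 2.26 and 0.181 and Aspn at 2.24 and 0.185. In each of these genes 1 GFP+ member supplied 97.2% or more of the GFP+ UMIs, the one with 73 UMIs of Dcn and 2.79 myogenic marker UMIs per 10000. Without it the GFP+ ratios lay below 1 as in the GFP- library, at 0.210 for Ccl2, 0.0450 for Thbs4, 0.115 for Ccl7 and 0.0380 for Tnfaip6, on 6, 1, 4 and 2 UMIs. Ptgs2, Mfap5 and Aspn then had 0 UMIs in GFP+ members.

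Barcodes over the mitochondrial limit entered no comparison. In the GFP- library 46 of 312 such barcodes, or 14.7% (11.0 to 19.2), met both gene sums of the S phase rule. Their median was 3030.5 UMIs and 3 UMIs of the 8 S genes, and 27 of the 46 held 3 or fewer, so few UMIs that the share says little about S phase. Empty droplets of that library held 3.58 per 10000 of these genes. In the GFP+ library 2 of 28 met them.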

How the results depend on the processing

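With 1 library per fraction no replicate could be left out. No paired analysis was possible because each group holds 1 library and no result comes from a test. Leaving out the scrublet doublets or the barcodes found in both libraries moved no count by over 1.5 times. For the values below that moved or changed side, the cause was not tested.

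The GFP- share of S phase cells was 12.01% with an S sum of at least 4, 6.68% with at least 10, 6.44% with a G2/M sum below 4, 11.5% with at most 5% mitochondrial UMIs and 11.0% after thinning, while the ratio of shares ran from 0.592 to 0.792. Genes higher in S phase than in other cells numbered 332 and were 217 after thinning, 162 at 50 CPM, 676 at 1.5-fold and 701 without a level filter. Genes lower numbered 111 and were 69 with the G2/M sum below 4, 47 after thinning, 180 when scaled without mitochondrial and ribosomal protein genes, 60 at 50 CPM, 472 at 1.5-fold and 449 without a level filter. Against G2/M cells the 22 higher genes became 41 with an S sum of at least 10, 8 at 50 CPM, 87 at 1.5-fold and 86 without a filter, and the 104 lower genes 67, 175 and 184 under the last 3 of these.

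In GFP+ against GFP- members, the 107 higher genes became 473 after thinning, 64 without barcodes low in myogenic markers, 65 without the single member highest in Dcn, Lum, Dpt and Pdgfra, 368 by mean per-cell CPM, 48 at 50 CPM, 342 at 1.5-fold and 742 without a filter. The 67 lower genes became 42, 112 and 153 with the S sum at least 4, at least 10 and the G2/M sum below 4, then 628 after thinning, 44 and 42 with TMM and median-of-ratios scaling, 120 without mitochondrial and ribosomal protein genes, 163 by mean per-cell CPM, 16 at 50 CPM, 456 at 1.5-fold and 779 without a filter. Of 5069 ratios of single genes recomputed under 16 settings, 4581 stayed within the interval of the reported ratio, 473 left it and 15 changed side. Those were Tnfaip6 (0.636) and Ccl2 (0.313) in GFP+ over GFP- members with the G2/M sum below 4, and Ccl2 again at 0.345 and 0.346 without the barcodes low in myogenic markers and without the single member. After thinning they were Cdca7 (0.906) and Cdt1 (0.453) over G2/M cells and Kdm7a (1.49), Chodl (2.52) and Zfp871 (1.03) in GFP+ over GFP- members, where Kdm7a stood at 1.28 by mean per-cell CPM. Without Myog-bearing barcodes Myog stood at 2.83 and 1.21, Mymk at 9.25 and Mymx at 2.63 in the GFP+ library and Actc1 at 1.36 in the GFP- library, over other cells. Settings without barcodes of low myogenic markers, few S gene UMIs or Myog, without the single member and without shared barcodes were added after seeing the data. The 36 GFP+ members, and 8 in each of their upper bins, set the precision.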

Other observations

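Genes outside the lists also separated the class. Lrr1, which helps remove the replicative helicase, stood at 21.5 and 21.4 CPM in GFP+ and GFP- members against 0.116 and 0.254 in other cells. Dscc1, of a clamp loader for cohesion, stood at 35.1 and 39 against 0.463 and 1.11, and at 12.8 and 13.9 in G2/M cells.

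On the low side, the complement regulator Serping1 stood at 22.2 CPM in GFP+ members against 102 in other cells, and at 19.1 against 70.3 in the GFP- library. Kdm5b, a histone demethylase, stood at 7.87 and 19.5 CPM against 54.3 and 66.1. Hdac11, a histone deacetylase, stood at 5.01 and 5.5 against 27.4 and 22.7. These genes were at similarly low levels in G2/M cells, Kdm5b at 11.6 and 25.3 CPM and Serping1 at 25.7 and 15.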
